A study of Mus musculus with 27 samples.

Results

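The genes described here encode the subunits, caps, inhibitor and assembly factors of the proteasome, read in sorted mouse microglia. Members were the protein-coding genes whose symbol starts with Psm, a letter from a to g and a number, with counts in at least 3 of the 27 libraries. Of 54 symbols with that pattern, 50 were protein-coding in the GENCODE M21 annotation and 49 met the rule, of 56691 genes in the table. Psmb11, a subunit of the thymus, had no counts and stayed out, and Psmc3ip, which shares the pattern but acts in meiotic recombination, is a member that is no subunit. All 49 passed the filter on low counts, and 42 had counts in every library.

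The study asked how gut microbes bear on microglia after intracerebral hemorrhage (ICH), a bleed modelled by injecting collagenase into the brain. Wild-type mice were specific pathogen-free (SPF) with no other treatment, given an antibiotic cocktail (ABX), or kept germ-free (GF). Each kind was sampled at day 3 and day 7 after collagenase, and at day 7 after PBS (sham), which gave 9 groups of 3 libraries. A comparison of day 3 with sham therefore also differs in day. Cells were sorted by flow cytometry from tissue around the hematoma and amplified with a low-input kit. Nothing in the sources used here says whether the 3 libraries of a group came from separate mice or pools, so p-values measure the spread between these libraries, which may be technical.

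The proteasome is a barrel of stacked rings of alpha and beta subunits, the 20S core, in which 3 beta subunits cut proteins. A 19S cap recognises ubiquitin chains, unfolds the tagged protein with a ring of ATPases and feeds it into the core. Interferon-gamma induces Psmb8, Psmb9 and Psmb10, which replace Psmb5, Psmb6 and Psmb7 in newly built cores and favour peptides for class I antigen presentation; microglia and other immune cells are known to carry this immunoproteasome. When proteasome activity falls, the transcription factor encoded by Nfe2l1 is known to raise subunit genes through antioxidant response elements.

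Promoter sequences of the catalytic genes Psmb5, Psmb6, Psmb8, Psmb9 and Psmb10 are shown because the standard and the immunoproteasome genes are known to answer to different factors. RefSeq promoter windows (build GRCm38.p6, from 250 bases before to 50 bases after the RefSeq gene start) matched 41 members with 44 windows. The lines give 5′ to 3′ sequence on the gene's strand, with the matched motif in capitals. Psmb5 is shown for chr14:54618023-54618145 on the minus strand and Psmb6 for chr11:70525207-70525356 on the plus strand. Psmb8 and Psmb9 are shown for their matched site alone, at chr17:34198088-34198116 on the plus strand and chr17:34187331-34187348 on the minus strand. For both, the 150 bases before the RefSeq start lie in GENCODE exons of the same gene, whose annotated start is farther upstream. Psmb10 is shown for chr8:105938445-105938542 on the minus strand.
Psmb5: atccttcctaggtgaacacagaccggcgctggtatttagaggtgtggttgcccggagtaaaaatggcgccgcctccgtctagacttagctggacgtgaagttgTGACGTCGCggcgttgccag
Psmb6: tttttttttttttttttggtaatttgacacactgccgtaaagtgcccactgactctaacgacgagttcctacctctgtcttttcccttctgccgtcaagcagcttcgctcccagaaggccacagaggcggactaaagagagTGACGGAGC
Psmb8: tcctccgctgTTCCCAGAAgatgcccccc
Psmb9: gcagccgctgATTGGaaa
Psmb10: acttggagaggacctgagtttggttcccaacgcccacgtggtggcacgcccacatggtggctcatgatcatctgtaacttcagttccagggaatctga

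Each motif was searched on both strands. The antioxidant response element, TGACNNNGC, was found 47 bases before the RefSeq start of Psmb5 and 9 bases before that of Psmb6, and also in Psmc6, Psmd9, Psmd12 and Psme4. It was present in 13.6% of member windows and 12.4% of all 32851 windows. The interferon-gamma activated site, TTCNNNGAA, was found 97 bases before the RefSeq start of Psmb8, inside an annotated Psmb8 exon, and in Psmd2 and Psmg1, which is 6.82% of member windows against 8.3% of all. The core of the interferon-stimulated response element, searched as GAAA followed by any 2 bases and GAAA again, was in Psmb3, Psmd4, Psmd9, Psme1 and Psmg4, or 11.4% of member windows against 3.44% of all. The CCAAT box was in 31.8% and 37.4%, and the Psmb9 line shows its reverse complement, 8 bases before the RefSeq start. None of the 4 motifs was in the Psmb10 stretch, and these matches are descriptions of letters, not of binding.

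Libraries held 41664864 to 79090595 counts, and the number of genes with a count was 9185 to 18408. In 7 libraries fewer than 12000 genes were detected: all 3 of GF ICH day 7, ABX ICH day 7 replicates 1 and 2, and GF sham replicates 1 and 2. Proteasome genes dropped out in these. From 6 to 23 members (median 14) were below 10 on the counts-per-million scale (CPM, with library sizes scaled by TMM), against 2 to 7 (median 3) in the other 20 libraries. The 7 are called sparse here and the 20 complete. Summed markers of microglia were high throughout, with 24220 CPM the lowest of any library. Of these 10 markers, 4 were called lower and 0 higher in GF ICH day 7 than in GF sham (edgeR adjusted p under 0.05). Over all genes 12.7% were called lower and 1.7% higher. Against GF day 3, 4 markers were called lower and 2 higher. Summed neutrophil markers reached 840.5 to 3491 CPM in GF ICH day 7 against 4.35 to 108 in GF sham and at most 212.3 in any other group. All 7 neutrophil markers had counts in GF ICH day 7, and Ly6g was at 0 in 7 of the other 8 groups. Summed monocyte markers were 481.4 to 1877 CPM there against 4.94 to 614.7 in GF sham. Against GF sham, 4 of the 8 monocyte markers were called higher and 1 lower. Of the 6 neutrophil markers tested, 1 was called higher and 0 lower. The part of these cells in the results on that group was not tested.

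**Figure D1:**
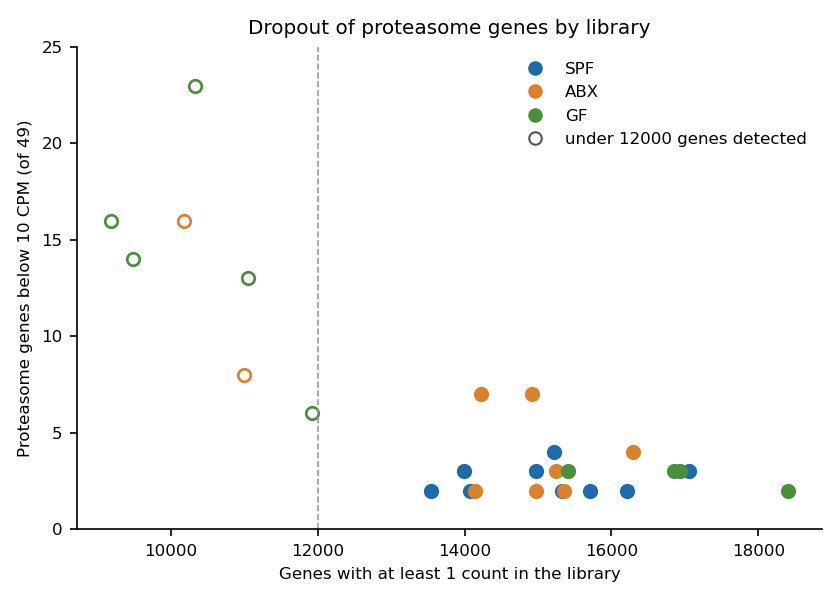
Proteasome genes below 10 CPM (of 49) against the number of genes with at least 1 count, 1 point per library, coloured by SPF, ABX or GF; open points are the 7 libraries under 12000 genes. The open points lie between 6 and 23 genes, and the filled points between 2 and 7.

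The core was abundant. The median spread between complete libraries was lower for proteasome genes than for all tested genes within their range of mean CPM. Per kilobase of transcript, medians over the 20 libraries ran from 599.7 CPM for Psmb6, the caspase-like subunit, through 327.9 for Psma7, 292.2 for Psmb3 and 227.2 for Psma1, to 0.935 for Psme4, the nuclear activator PA200. Psmc3, a cap ATPase, reached 222.0, Psme1 of the interferon-induced cap 194.5 and Psmb8 of the immunoproteasome 193.2. Low genes were Psmd3, a cap scaffold subunit, at 13.6, the inhibitor Psmf1 at 8.92, and the testis subunit Psma8 at 3.15 CPM per kilobase. Across the 20 libraries the SD of log2 CPM had a median of 0.60 over members and 1.11 over the 9006 tested genes in the members' range of mean CPM. That range ran from 4.87 to 487 CPM. The 2 sets were not matched by level within it, and the part of level in these medians was not tested. Psmc3 (0.26), Psmc4 (0.27) and Psma3 (0.31) varied least among members, and Psma8 (1.76) and Psmd3 (1.57) most. In the 7 sparse libraries the medians were 2.65 and 2.88. There Psmb8 ranged from 2.02 to 831.6 CPM, Psmb10 from 0.652 to 535.7 and Psmc4 from 0.905 to 689.4, while Psmd12, a cap lid subunit, stayed between 119.3 and 371.4.

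The summed level of all 49 genes was highest in ABX ICH day 7 on the scaled axis. As a share of raw counts, ABX ICH day 7 was near SPF ICH day 3. It was 13610 ± 2565 CPM (SD, n = 3) there and 10370 ± 1111 in GF ICH day 7, against 5700 ± 979 in SPF sham and 5700 to 7479 in the other 7 groups. As a share of raw counts, the same genes took 0.860% ± 0.103 in ABX ICH day 7 and 0.839% ± 0.167 in GF ICH day 7, against 0.854% ± 0.064 in SPF ICH day 3. The sham shares were lower, at 0.686% ± 0.118 in SPF, 0.75% ± 0.04 in ABX and 0.611% ± 0.097 in GF mice. The TMM factors ran from 0.476 to 1.31 over libraries and were lowest in ABX ICH day 7 replicate 1.

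Psmb5, the chymotrypsin-like subunit (chromosome 14, bases 54614119 to 54618022), had 97.7, 24.8 and 59.8 CPM in SPF sham and 111, 142 and 167 in SPF ICH day 3. These groups did not overlap, while SPF ICH day 7, at 108, 90.6 and 123 CPM, overlapped sham. Psmb6 (chromosome 11, bases 70525367 to 70527858) had 276, 194 and 372 CPM in SPF sham, 507, 440 and 568 at day 3 and 558, 376 and 558 at day 7, above every sham library at both times. Psmb7, the trypsin-like subunit (chromosome 2, bases 38588036 to 38644087), overlapped, with 19.5, 52.7 and 32.5 CPM in sham and 54.7, 56.6 and 32.2 at day 3. Changes were tested with edgeR's quasi-likelihood model over all 17573 genes, and passed at a Benjamini-Hochberg adjusted p under 0.05. The fitted log2 changes from SPF sham to day 3 were 1.21 ± 1.03 (SE) for Psmb5, 0.85 ± 0.73 for Psmb6 and 0.45 ± 0.76 for Psmb7, none of which passed (edgeR adjusted p of 0.991, 0.989 and 1).

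Psmb8 (chromosome 17, bases 34197721 to 34201454) had 260, 251 and 250 CPM in SPF sham, 379, 313 and 263 at day 3 and 313, 323 and 408 at day 7, so the ICH libraries lay above sham by little. Psmb9 (chromosome 17, bases 34181987 to 34187764) was the lowest of the 6 per length, at a median of 37.3 CPM per kilobase over the complete libraries against 40.1 for Psmb7. It had 31.2, 17.4 and 52.3 CPM in SPF sham and 57.5, 66.5 and 68.6 at SPF day 7. Its exons overlap those of Tap1 on the other strand, and the strand setting of the counting is not given in the sources used here, so reads of the pair may be mixed. Psmb10 (chromosome 8, bases 105935735 to 105938444) had 111, 64.6 and 64.3 CPM in SPF sham, and day 3 (183, 82.8 and 160) and day 7 (68.5, 151 and 172) overlapped with it. From SPF sham to day 7 the log2 changes were 0.46 ± 0.75 for Psmb8, 0.93 ± 1.35 for Psmb9 and 0.70 ± 1.25 for Psmb10, each with an edgeR adjusted p of 1.

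In the sparse libraries the 6 genes split in all directions. In GF ICH day 7, Psmb5 had 31.8, 1.35 and 134 CPM, Psmb8 2.02, 164 and 200, and Psmb10 289, 1.26 and 0.652. In GF sham, where replicates 1 and 2 were sparse, Psmb6 had 7.57, 282 and 502 CPM and Psmb9 276, 1.96 and 51.5. In GF ICH day 3, whose libraries were all complete, the same genes were tight: Psmb5 had 141, 146 and 145 CPM and Psmb6 536, 518 and 571. Psmb8 was below every GF sham library (832, 253 and 351 CPM) in GF ICH day 7, at a log2 change of -1.97 ± 0.78 that missed the threshold (edgeR adjusted p = 0.0865). With DESeq2 it passed, at -2.59 and an adjusted p of 0.0067. In that comparison DESeq2 called 855 higher and 6077 lower of the 17573 genes, so this call does not set Psmb8 apart.

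**Figure D2:**
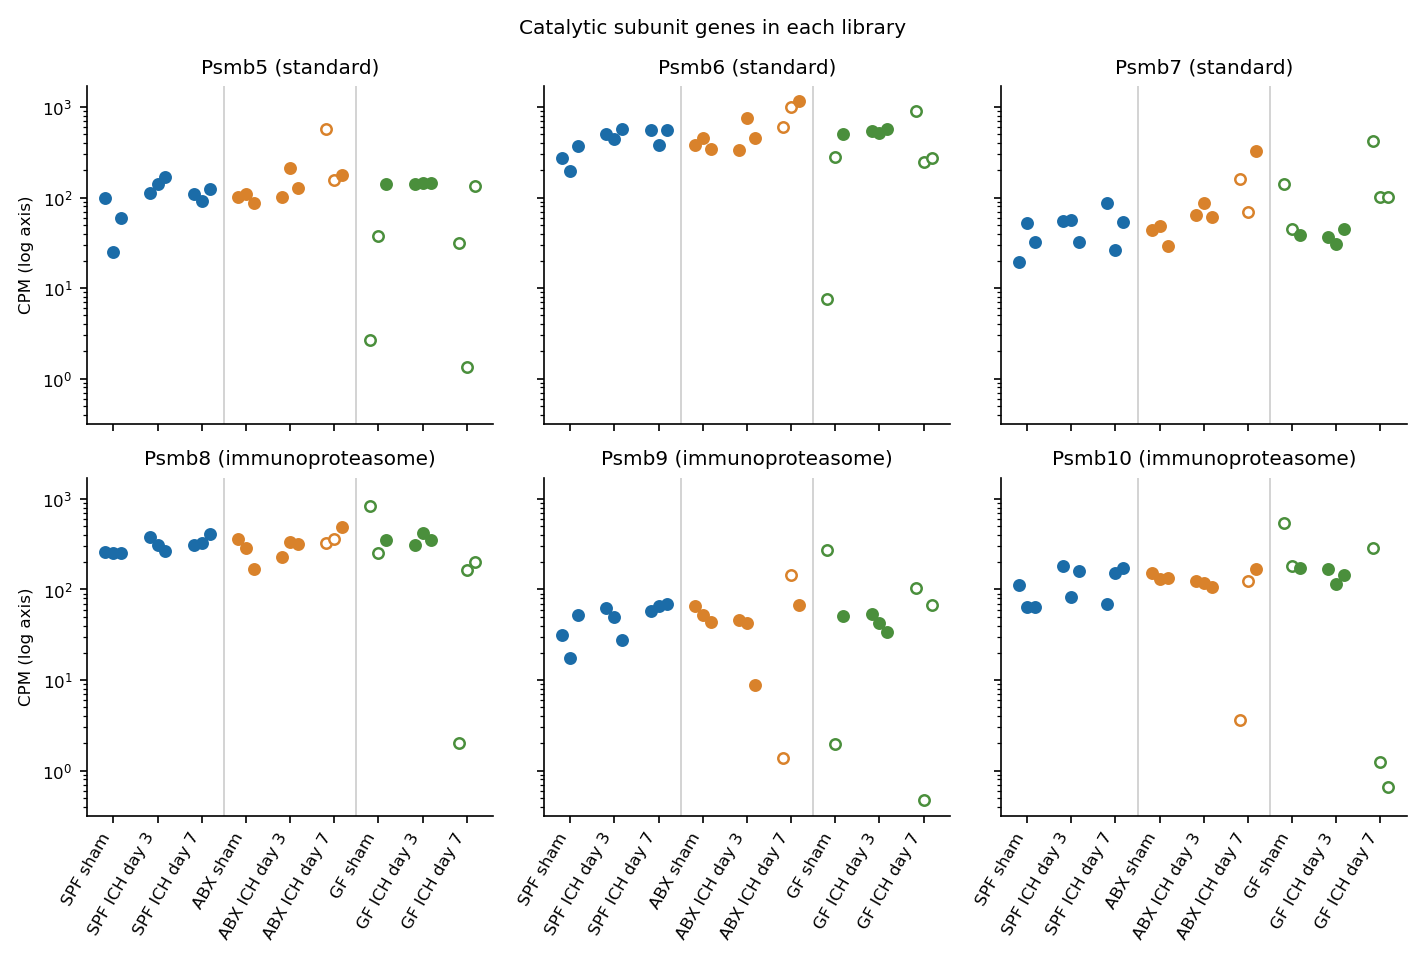
CPM (log axis) of the 3 standard and 3 immunoproteasome catalytic genes in each library by group; open points are the 7 libraries under 12000 genes detected. Filled points lie between 8.77 and 1153 CPM, and open points run down to 0.47 CPM.

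Ratios within a library remove the scaling between libraries. Psmb8 exceeded Psmb5 in all 20 complete libraries, with a median log2 ratio of counts of 1.41 (0.65 to 3.34). Psmb9 was below Psmb6 in all 20, with a median of -3.22 (-5.70 to -2.50). Psmb10 exceeded Psmb7 in 18 of 20, with a median of 1.70 (-0.97 to 2.51). In the 7 sparse libraries the ranges were -3.97 to 8.26, -9.02 to 5.19 and -7.28 to 2.02. These are ratios of counts, not per length, so they compare libraries, not the abundance of the 2 genes.

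No ratio differed after adjustment, and the 3 smallest p-values were of ratios that were lower after ICH or at day 7. Psmb8 over Psmb5 was lower at ICH day 3 than in sham by a mean log2 difference of -1.41, with -1.08 in SPF, -0.34 in ABX and -2.79 in GF mice (two-sided exact permutation test within the 3 conditions, p = 0.014, adjusted p = 0.07 over 15 tests). Without the sparse GF sham replicate 1, whose ratio was 8.26, the difference was -0.72, and without all sparse libraries -0.48 (exact permutation p = 0.0769). The SPF ratios were 1.41, 3.34 and 2.06 in sham and 1.77, 1.14 and 0.65 at day 3, which overlap. Psmb10 over Psmb7 was lower at day 7 than in sham by -3.47 (exact permutation p = 0.0085, adjusted p = 0.07) and lower than at day 3 by -3.17 (exact permutation p = 0.0118, adjusted p = 0.07). Against sham the day 7 difference was -6.75 in GF and -3.66 in ABX mice, where 5 of the 6 day 7 libraries were sparse, and 0.02 in SPF mice.

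Psmb9 over Psmb6 differed from sham by -1.20 at day 3 (exact permutation p = 0.404) and -1.69 at day 7 (exact permutation p = 0.256), and by 0.22 at day 7 in SPF mice alone. Without GF sham replicate 1 these differences were -0.048 and -0.54, and without GF sham replicate 2 they were -2.11 and -2.60. Against SPF mice, ABX mice had lower Psmb8 over Psmb5 by -0.69 (exact permutation p = 0.043, adjusted p = 0.161) and GF mice a difference of 0.48 (exact permutation p = 0.78). None of the 15 tests passed after adjustment. The smallest p that the 8000 assignments allow is 0.00025.

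**Figure D3:**
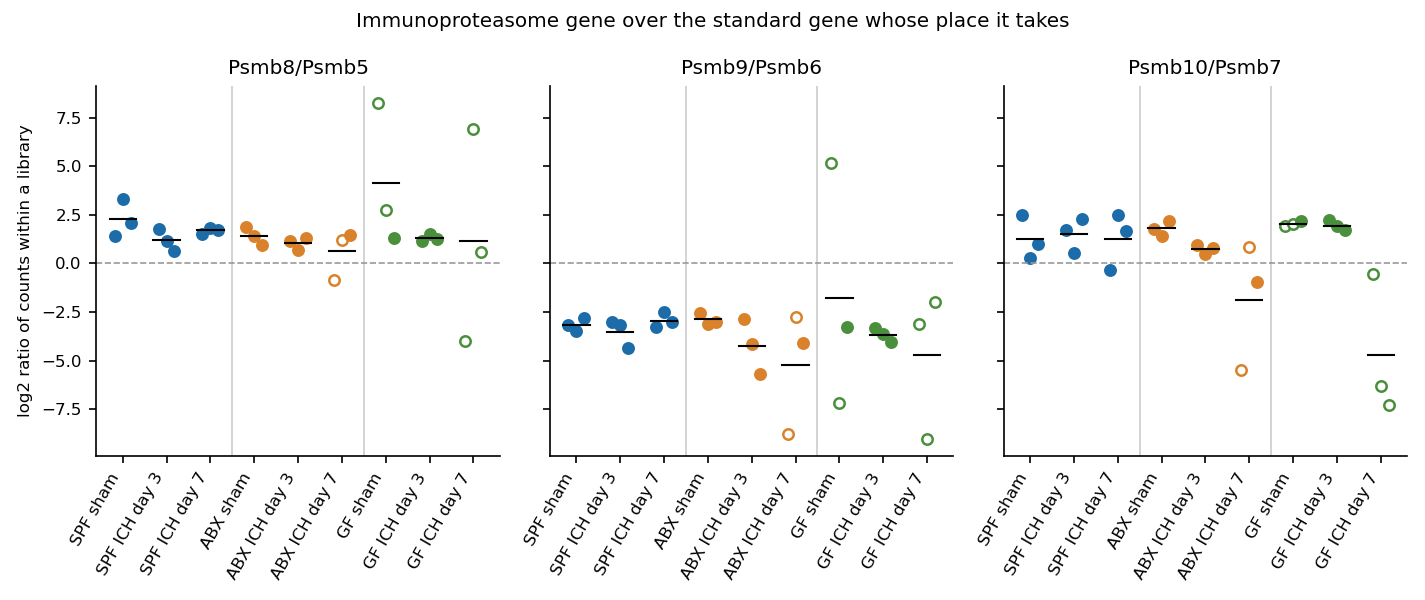
Log2 ratio of counts of each immunoproteasome gene to the standard gene whose place it takes, 1 point per library, with the group mean as a bar; open points are the 7 libraries under 12000 genes detected and the dashed line marks equal counts. The SPF groups overlap in all 3 panels, and the open points spread from -9.02 to 8.26.

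In SPF mice no proteasome gene passed the edgeR test after ICH, at day 3 or day 7. At day 3 the call rate over all genes was 0.102% and at day 7 0.0797%, and 0 members had an unadjusted p under 0.05, against 7.26% and 5.01% of all genes. The median log2 change of members was 0.35 at day 3 against -0.07 over all genes, with 39 of 49 above 0, and 0.15 against -0.03 at day 7. At day 3, 12 members were higher in every ICH library than in every sham library (24.5%, against 9.18% of all genes) and 0 were lower, against 1227 of the 17573 genes. At day 7, 6 were higher (12.2%, against 5.94%) and 0 lower, against 812 genes. DESeq2 and limma voom also called 0 members in both. Summed markers of other cells differed between the same groups, with 0 of these markers called. Those of border macrophages (6 genes, with Lyve1 at 0 in sham and Cd163 and Lyve1 at 0 at day 3) were 0.757 to 8.31 CPM in SPF sham, 48.2 to 152.6 at day 3 and 52.6 to 138 at day 7, and summed monocyte markers (8 genes) 8.52 to 39.3, 42.6 to 83.6 and 25.9 to 127.7. Summed microglia markers were 51650 to 60090 CPM in sham, 30940 to 36220 at day 3 and 34490 to 49860 at day 7. Their part in the proteasome values was not tested. In bulk RNA of sorted cells, a different share of cell types and a different amount of RNA per cell cannot be told apart.

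The smallest p-values in SPF mice at day 3 were of Psmf1, the inhibitor PI31, and Psmb3, a non-catalytic beta subunit. Psmf1 had 22.7, 3.08 and 14.7 CPM in sham and 30.9, 66.2 and 61.8 at day 3, without overlap (log2 change 1.97 ± 1.23, edgeR adjusted p = 0.752). Psmb3 had 179, 126 and 155 CPM in sham and 212, 262 and 240 at day 3, also without overlap (0.63 ± 0.44, edgeR adjusted p = 0.837). At day 7 they were of Psme2 and Psme1, the 2 subunits of the PA28 cap that interferon induces. Psme2 (chromosome 14, bases 55587441 to 55591113) had 117, 87.2 and 132 CPM in sham and 233, 154 and 198 at day 7 (0.80 ± 0.49, edgeR adjusted p = 0.956), and Psme1 (chromosome 14, bases 55578123 to 55581529) 214, 172 and 105 against 332, 231 and 269 (0.76 ± 0.55, edgeR adjusted p = 1). Both genes were higher in every day 7 library than in every sham library, and neither passed. Reads of Psme2 and its copy Psme2b can be split by the counting, and exons of Psme1 overlap Emc9 on the other strand, so these levels are uncertain.

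Day 3 in the other 2 conditions also gave 0 calls. In ABX mice 0 of 49 passed (edgeR, against 0.125% of all genes), 0 had an unadjusted p under 0.05 (against 8.27%), and the median was 0.20 against 0.00 over all genes. There, 8 members were higher without overlap (16.3%, against 9.74%) and 2 lower (4.08%, against 10.1%). Psma1, an alpha ring subunit, had 258, 265 and 241 CPM in sham and 284, 493 and 353 at day 3 (0.57 ± 0.51, edgeR adjusted p = 1), and Psmd5, a chaperone of the cap, 170, 119 and 121 against 121, 61.9 and 5.76 (-1.11 ± 0.97, edgeR adjusted p = 0.994). In GF mice 0 passed (edgeR, against 0.00569%), 2 had an unadjusted p under 0.05 (against 5.29%), and the median was -0.21 against 0.23. There 6 members were higher without overlap (12.2%, against 10.8%) and 3 lower (6.12%, against 2.98%).

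The 2 GF genes were Psmd10 and Psmc6. Psmd10, the cap chaperone gankyrin, had 608, 90.7 and 73.5 CPM in GF sham and 60.1, 45.5 and 50.8 at day 3 (-2.30 ± 0.74, edgeR adjusted p = 0.797), without overlap. DESeq2 called it, at -2.86 and an adjusted p of 0.0128, among 352 higher and 360 lower of the 17573 genes. Psmc6, a cap ATPase, had 723, 18.1 and 88.5 CPM in sham and 71.7, 88.9 and 59.5 at day 3 (-1.91 ± 0.82, edgeR adjusted p = 0.797). The highest value of both genes was in GF sham replicate 1, a sparse library, and without it the changes were -0.66 and 0.46.

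At day 7 in ABX mice no member was called in the edgeR fit, and the median log2 change from sham was 0.94 against -0.79 over all genes, with 40 of 49 above 0. No member passed (against 0.945% of all genes), 12 had an unadjusted p under 0.05 (24.5%, against 21.5%), and 16 were higher without overlap (32.7%, against 7.8%) with 5 lower (10.2%, against 22.4%). All 7 alpha ring genes, all 6 ATPases and all 3 standard catalytic genes had values above 0, with medians of 0.94, 1.27 and 1.61. The 4 other beta ring genes were also above 0, with a median of 1.03. The 3 immunoproteasome genes had a median of 0.41, with 2 above 0 and 1 below. The 11 cap subunits that are not ATPases had a median of 0.31, with 7 above 0 and 4 below, so a low median was not particular to the immunoproteasome. Summed markers of monocytes were 14.9 to 813.7 CPM there against 7.52 to 19.4 in ABX sham, those of dendritic cells 0.759 to 404.9 against 4.20 to 9.99 (Clec9a and Xcr1 at 0 at day 7), those of T and NK cells 13.4 to 330.4 against 5.84 to 18, and those of border macrophages 1.66 to 213.9 against 4.38 to 22.1. Their part in these values was not tested.

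Psme2 had the smallest p in ABX mice at day 7, with 799, 382 and 218 CPM against 126, 159 and 108 in sham (1.83 ± 0.50, edgeR adjusted p = 0.0777). The gene was above sham in all 3 libraries and most in the sparse replicate 1. Psma2, an alpha ring subunit, had 986, 596 and 508 CPM against 148, 170 and 138 (2.20 ± 0.69, edgeR adjusted p = 0.128). Psmb7 had 161, 68.7 and 326 CPM against 44.2, 48.3 and 29.2 (2.19 ± 0.79, edgeR adjusted p = 0.168). The other tools did call members here. DESeq2 called 8 (Psma2, Psmb7, Psmd10, Psme2 and Psme2b higher, and Psmc3ip, Psmd3 and Psmf1 lower), and limma voom called Psma2, Psmb1 and Psme2, all higher. Over all 17573 genes DESeq2 called 1052 higher and 3838 lower, and voom 384 and 197. Without the 7 sparse libraries edgeR called 13, 10 higher and 3 lower, on the one ABX ICH day 7 library left, which is then assumed to vary like the other groups. That fit called 792 higher and 927 lower of 22071 genes.

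In GF mice at day 7, 10 members were called against sham (20.4%, against 14.4% of all genes), 5 higher (10.2%, against 1.7%) and 5 lower (10.2%, against 12.7%). The median member was 0.19 and the median gene -2.10, and 9 members were higher without overlap (18.4%, against 5.34%) with 6 lower (12.2%, against 11.6%). The genes called higher were the alpha ring subunits Psma1 and Psma2, the beta subunit Psmb1, the cap subunit Psmd6 and Psme2. Those called lower were the ATPase Psmc4, the cap scaffold Psmd3, the activator Psme4, the inhibitor Psmf1 and Psmc3ip. Limma voom also called Psma1, Psma2, Psmb1, Psme2 and Psmc4. It did not call Psmd6, Psmd3, Psme4, Psmf1 and Psmc3ip (limma voom adjusted p of 0.0525, 0.064, 0.0501, 0.177 and 0.378). Over all genes voom called 271 higher and 926 lower there. All 3 GF ICH day 7 libraries are among the sparse ones, so the group and the sparseness cannot be told apart, and the comparison has no version without them. With DESeq2's size factors in the edgeR fit the median over all genes was -2.63 and the calls were 2 higher and 7 lower, against 197 and 2677 of the 17573 genes.

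All 7 genes of the alpha ring had log2 changes above 0 in GF mice at day 7, from 1.17 to 2.84 with a median of 1.62, and 2 passed. Psma1 had 791, 872 and 1023 CPM at day 7 against 532, 78.5 and 266 in sham, above all 3 (1.62 ± 0.52, edgeR adjusted p = 0.0404). Psma2 had 715, 461 and 794 CPM against 4.83, 105 and 165, again without overlap (2.84 ± 0.71, edgeR adjusted p = 0.00939). Psma1 lost its call with DESeq2's size factors (0.97, edgeR adjusted p = 0.216), and both lost it with offsets for GC content (0.09 and 0.93, edgeR adjusted p of 0.96 and 0.34). Psma1 also lost it with DESeq2, without the filter, with the replicate block and in 22 of the 27 fits without 1 library. Limma voom kept the Psma1 call.

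Among the beta subunits Psmb1, which has no active site, had 674, 618 and 752 CPM at GF day 7 against 436, 151 and 198 in sham (1.38 ± 0.46, edgeR adjusted p = 0.0451). The day 7 libraries lay above all sham libraries, and the call ended with DESeq2's size factors (0.76, edgeR adjusted p = 0.256) but not with GC offsets (1.72, edgeR adjusted p = 0.0185). The Psmb1 call was also lost with DESeq2, without the filter, with the replicate block and in 23 of the 27 fits without 1 library. Limma voom kept it. Psmb5, Psmb6, Psmb7 and the immunoproteasome genes did not pass. Their log2 changes ran from -1.97 for Psmb8 to 1.47 for Psmb7, and their libraries overlapped except for Psmb8.

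Subunits of the cap went both ways. Psmc4, an ATPase, had 0.905, 29.6 and 1.09 CPM at GF day 7 against 689, 228 and 192 in sham, 200, 168 and 169 at GF day 3 and 147, 117 and 149 in SPF ICH day 7. No other group had a library of Psmc4 under 109 CPM, and the log2 change from GF sham was -5.13 ± 0.99 (edgeR adjusted p = 0.00172). Psmc2, another ATPase of the same ring, had 460, 539 and 939 CPM at GF day 7 and was called higher than at GF day 3 (202, 177 and 160 CPM, 1.84 ± 0.51, edgeR adjusted p = 0.0188). With GC offsets that difference was -0.072 (edgeR adjusted p = 0.97), and without the filter it missed the threshold (1.84, edgeR adjusted p = 0.076). Psmd6, a lid subunit, had 357, 470 and 163 CPM against 2.13, 21 and 107 in GF sham (2.93 ± 0.84, edgeR adjusted p = 0.0215), and the day 7 level was higher than every sham library. Psmd3 had 0, 0.244 and 0.547 CPM against 0.322, 129 and 50.5 (-7.82 ± 2.02, edgeR adjusted p = 0.0121), which overlap in sham replicate 1.

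Of the 4 activators and the Psme2 copy, 1 gene was called higher and 1 lower. Psme2 had 480, 382 and 281 CPM at GF day 7 against 62.2, 102 and 146 in sham, without overlap (1.88 ± 0.50, edgeR adjusted p = 0.0145). It missed the threshold with DESeq2's size factors (1.45, edgeR adjusted p = 0.0718) and without the filter (1.89, edgeR adjusted p = 0.0804). With GC offsets Psme2 was at 3.35 (edgeR adjusted p = 0.000462). Psme1, its partner, had 402, 103 and 396 CPM against 351, 200 and 218, which overlap (0.23 ± 0.55, edgeR adjusted p = 0.812). With GC offsets Psme1 passed, at 2.30 (edgeR adjusted p = 0.00504), and with DESeq2's size factors it was -0.29. Psme4 had no counts in any GF day 7 library, against 0, 52.8 and 2.5 CPM in sham, at least 303-fold lower by group means with 3 counts per library in place of 0. One sham library was at 0 as well, so the libraries overlap. Most of the Psme4 sham mean came from the 52.8 CPM of the sparse replicate 2.

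The inhibitor Psmf1 (chromosome 2, bases 151715812 to 151744186) had 0.168, 0.395 and 0.273 CPM at GF day 7, against 0.322, 2.18 and 33.5 in GF sham and 43.3, 35.7 and 31.6 at GF day 3. The log2 changes were -5.42 ± 1.44 (edgeR adjusted p = 0.014) and -7.03 ± 1.55 (edgeR adjusted p = 0.00518), and all 7 sparse libraries had at most 2.18 CPM of this gene. ABX ICH day 7 had 1.42, 0.271 and 3.07 CPM, the last in its complete replicate 3, against 33.2, 40.8 and 20.5 in ABX sham (-4.31 ± 1.36, edgeR adjusted p = 0.13). Psmc3ip and Psma8 had no counts in GF ICH day 7. Psmc3ip was at least 68.5-fold lower by group means than in GF sham, which had 0.161, 0 and 12.4 CPM. That sham mean rests on replicate 3, the libraries overlap, and without this replicate the edgeR call was lost. Against GF day 3, Psmc3ip was at least 50.5-fold lower. Psma8, at 5.03, 9.55 and 8.73 CPM at GF day 3, was at least 128-fold lower than that.

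**Figure D4:**
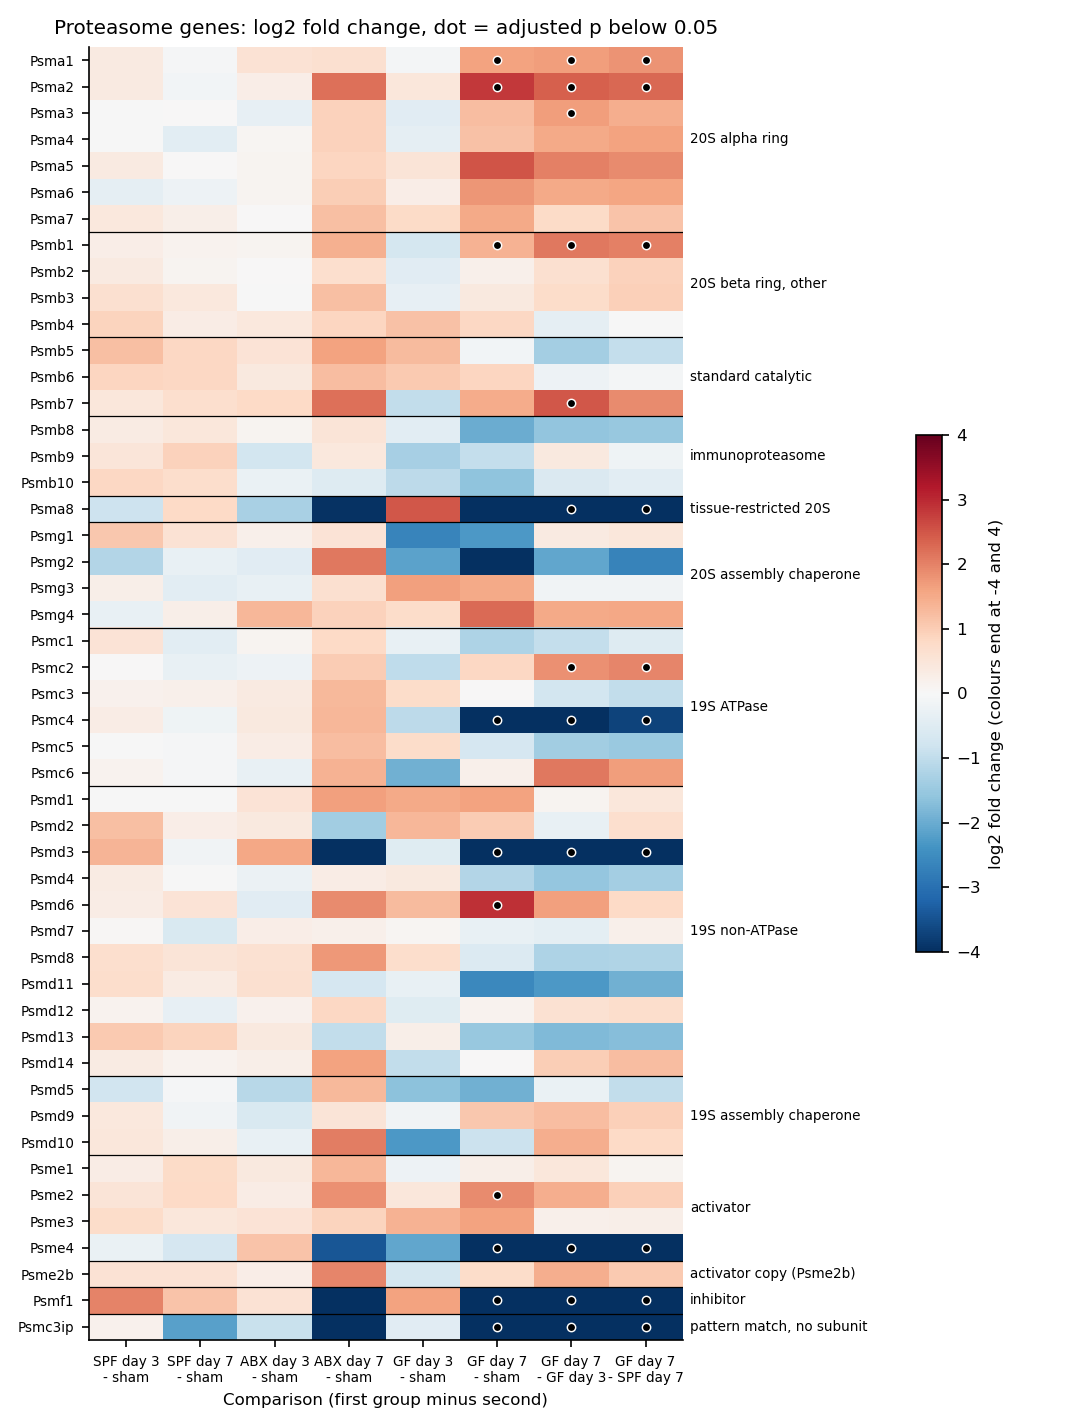
Log2 fold change of the 49 genes (rows, by role) in 8 comparisons (columns, first group minus second); red is higher, blue is lower, colours end at -4 and 4, and a dot marks an edgeR adjusted p under 0.05. Dots are in the 3 columns with GF ICH day 7 alone: 10, 12 and 10 of them.

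Against GF day 3 instead of sham, 12 members were called (24.5%, against 15.3% of all genes), 6 higher (12.2%, against 1.83%) and 6 lower (12.2%, against 13.4%). Against SPF ICH day 7, 10 were called (20.4%, against 12.9%), 4 higher (against 1.08%) and 6 lower (12.2%, against 11.8%). These 3 comparisons share the GF day 7 libraries, so their calls are not separate evidence. Psma1 was higher by 1.62, 1.68 and 1.78 on the log2 scale against GF sham, GF day 3 and SPF day 7, Psmb1 by 1.38, 2.10 and 2.02, and Psmc4 differed by -5.13, -4.09 and -3.71. With GC offsets Psmc4 kept its call against GF sham (-3.81) and missed it against GF day 3 (-2.59, edgeR adjusted p = 0.0633) and SPF day 7 (-2.50, edgeR adjusted p = 0.0733). Psma3 and Psmb7 were called higher against GF day 3 alone. Psma3 had 564, 500 and 456 CPM against 157, 175 and 147 (1.67 ± 0.49, edgeR adjusted p = 0.0248), and Psmb7 417, 100 and 103 against 36.4, 30.8 and 44.7 (2.47 ± 0.80, edgeR adjusted p = 0.0387), both without overlap. With GC offsets Psma3 was -0.31 (edgeR adjusted p = 0.67) and Psmb7 0.57 (edgeR adjusted p = 0.631), and both lost their call with DESeq2's size factors and without the filter. Psmb7 also lost it with the replicate block (edgeR adjusted p = 0.0623) and in 15 of the 27 fits without 1 library, whose values ran from 1.44 to 2.80.

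**Figure D5:**
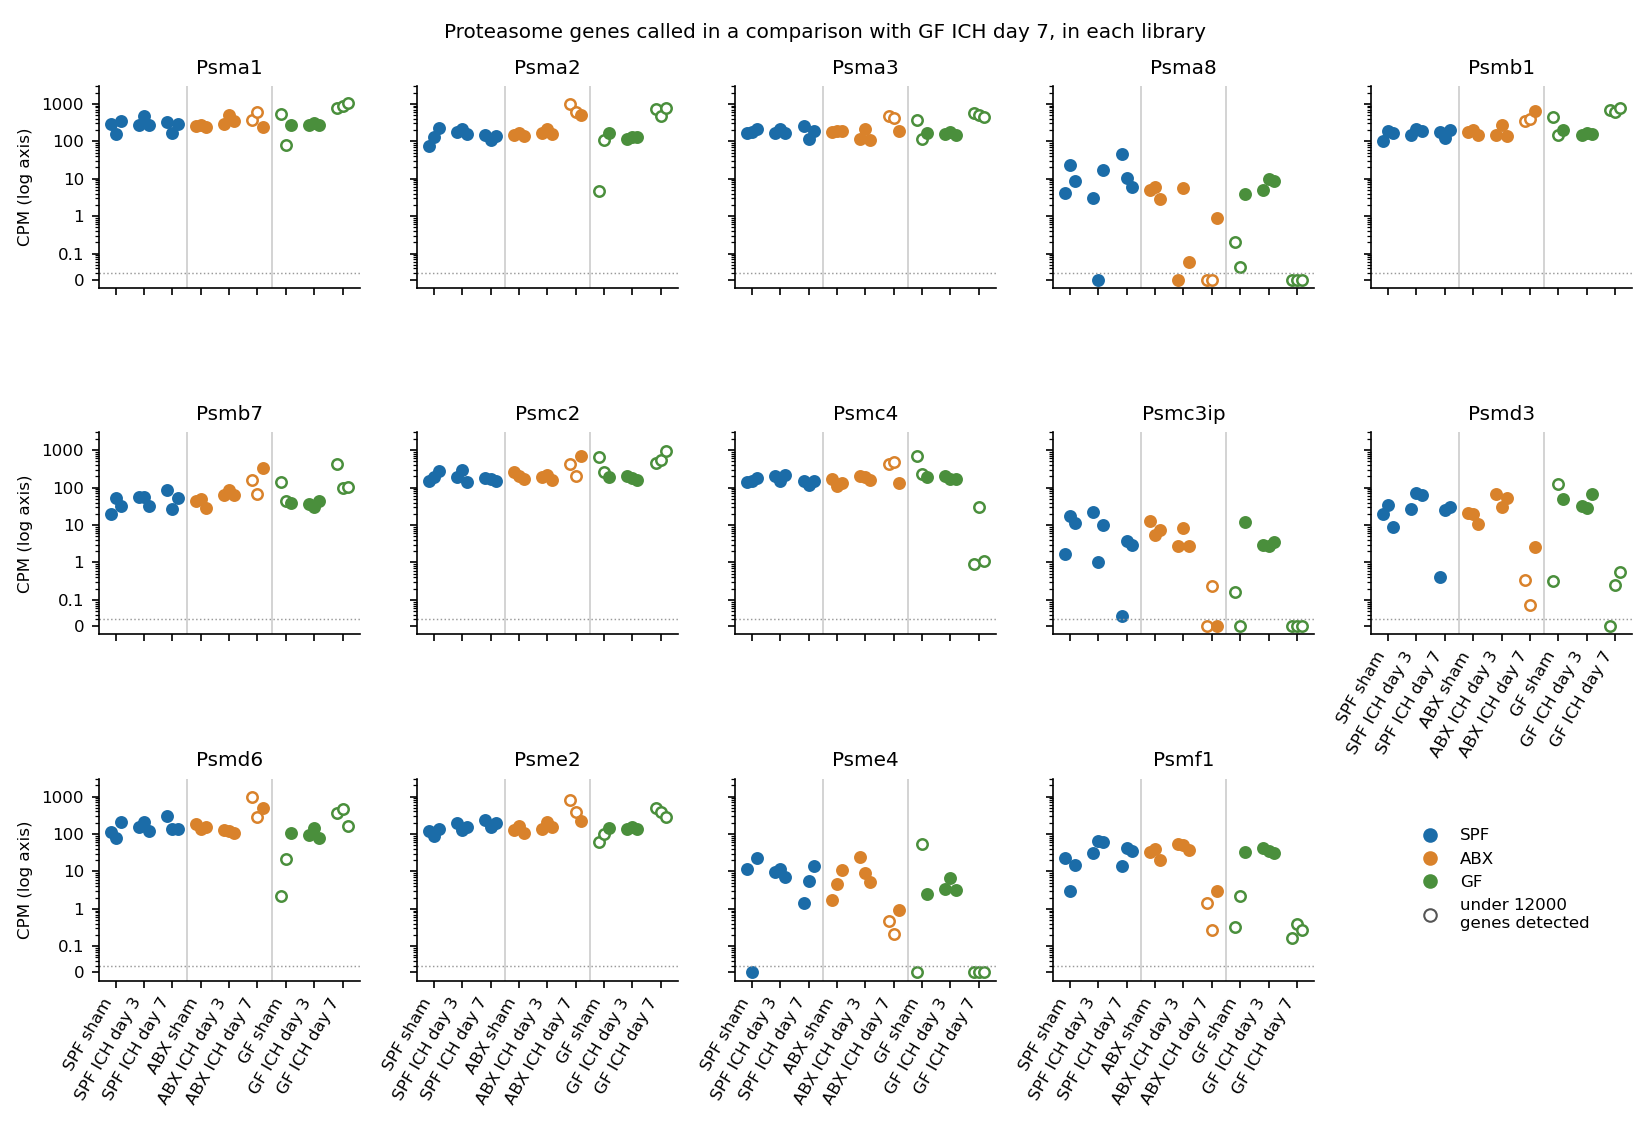
CPM (log axis, with 0 drawn below the dotted line) of the 14 genes called in a comparison with GF ICH day 7, 1 point per library by group; open points are the 7 libraries under 12000 genes detected. In GF ICH day 7, Psma8, Psmc3ip and Psme4 lie at 0 in all 3 libraries, and Psma1, Psma2 and Psmb1 lie between 461 and 1023 CPM.

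Single libraries decided many of these calls. Called in each of the 27 fits that left out 1 library were Psma2, Psmc4, Psmd3 and Psme4 against GF sham, Psmb1, Psmc4, Psmd3 and Psmf1 against GF day 3, and Psmb1, Psmc4 and Psmf1 against SPF day 7. Without GF ICH day 7 replicate 3 the count fell from 12 to 6 against GF day 3 and from 10 to 3 against SPF day 7. Without GF ICH day 3 replicates 1, 2 or 3 it was 7, 6 and 6 against that group, and without GF ICH day 7 replicate 1 it was 8. Leaving out replicate 2 or 3 of SPF ICH day 7 left 5 calls in the comparison with SPF. Psme2 lost its call without GF ICH day 7 replicate 1 (edgeR adjusted p = 0.0546), and in the 2-group fit of GF ICH day 7 with GF sham 0 members passed. The genes called higher had GC contents with medians of 47.1%, 41.1% and 42.7% in the 3 comparisons, and those called lower had medians of 49.8%, 49.3% and 49.3%; the part of GC content in the calls was not tested.

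The remaining comparisons gave 0 calls in the edgeR fit. Day 7 differed from day 3 for 0 members in SPF mice (against 0% of all genes; at an unadjusted p under 0.05, 0 members against 4.09%) and for 0 in ABX mice (against 0.728%; 15 members, or 30.6%, against 20.8%). ABX sham against SPF sham gave 0 (against 0%; unadjusted 0 against 4.05%), and GF sham against SPF sham gave 0 (against 0.00569%; unadjusted 2, or 4.08%, against 6.22%). At ICH day 3, ABX against SPF gave 0 (against 0%; unadjusted 0 against 4.89%), as did GF against SPF (against 0%; unadjusted 0 against 3.46%). At ICH day 7, ABX against SPF gave 0 (against 0.0854%; unadjusted 10, or 20.4%, against 19.4%). DESeq2 called 9 in ABX mice between days, 1 (Psmd10, higher) between GF and SPF shams and 7 between ABX and SPF at day 7, and limma voom called 2, 0 and 3. Over all genes DESeq2 called 985 higher and 3818 lower between days in ABX mice, 584 and 292 between GF and SPF shams, and 782 and 3684 between ABX and SPF at day 7. Voom called 249 and 100, 0 and 0, and 184 and 74.

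Whether the response to ICH differed between conditions was tested by interactions. At day 7 the GF response was lower than the SPF response for 3 members (6.12%, against 7.04% of all genes): Psmc4 by -4.96 ± 1.23 (edgeR adjusted p = 0.0194), Psme4 by -12.41 ± 3.42 (edgeR adjusted p = 0.0332) and Psmf1 by -6.57 ± 1.84 (edgeR adjusted p = 0.0334). With the replicate block Psme4 and Psmf1 missed the threshold (edgeR adjusted p of 0.0637 and 0.0735). Both also missed it with limma voom (limma voom adjusted p of 0.0812 and 0.1165). With GC offsets Psmc4 missed it (edgeR adjusted p = 0.0969). None of the 3 held in every fit without 1 library: 0 calls were left on leaving out any of the 3 SPF sham libraries, 1 without SPF ICH day 7 replicate 2 or 3 or GF ICH day 7 replicate 3, and 7 without GF sham replicate 1. The other 3 interactions gave 0: ABX at day 3 (against 0%; unadjusted 0 against 5.58%), ABX at day 7 (against 0%; unadjusted 2, or 4.08%, against 12.7%) and GF at day 3 (against 0%; unadjusted 1, or 2.04%, against 5.68%). DESeq2 called 1 in ABX mice at day 7, Psmf1, and 8 in GF mice at day 7. Over all genes it called 290 higher and 1645 lower in ABX mice and 356 and 4605 in GF mice.

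Genes around the proteasome were counted from lists chosen with earlier results known. Of 26 genes that make ubiquitin, deliver substrates or control proteasome genes, 0 were called after ICH in SPF and ABX mice and at GF day 3, and 9 were called at GF day 7 against sham, 1 higher (against 1.7% of all genes) and 8 lower (against 12.7%). Ubb, a polyubiquitin gene, had 1238 ± 331 CPM (SD, n = 3) at GF day 7 and 4000 ± 2383 in sham (log2 change -1.69 ± 0.38 SE, edgeR adjusted p = 0.00554). Rps27a, which encodes ubiquitin fused to a ribosomal protein, was the 1 higher gene (2.41 ± 0.55, edgeR adjusted p = 0.00534). Adrm1, a ubiquitin receptor of the cap, fell from 92.6 ± 79.2 to 0.79 ± 0.30 CPM (-6.87 ± 1.65, edgeR adjusted p = 0.00766), and Uba1, the main ubiquitin-activating enzyme, from 469 ± 781 to 0.235 ± 0.226 (-10.95 ± 2.11, edgeR adjusted p = 0.00177). Nfe2l1 had no counts at GF day 7 and 1.97 ± 3.19 CPM in sham.

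Of 15 genes of interferon signalling, 0 were called after ICH in the other 5 comparisons with sham and 2 were lower at GF day 7, near the 12.7% of all genes called lower there: the transcription factors Irf1 (-6.32 ± 1.39, edgeR adjusted p = 0.00414) and Irf8 (-3.91 ± 0.60, edgeR adjusted p = 0.000251). Of 10 genes of class I presentation, B2m, the light chain of class I molecules, rose in ABX mice at day 7 from 3048 ± 246 to 14520 ± 1759 CPM (2.25 ± 0.28, edgeR adjusted p = 0.000135) and in GF mice at day 7 from 3318 ± 1208 to 16080 ± 3777 (2.28 ± 0.28, edgeR adjusted p = 3.62e-05). Tap1, the peptide transporter beside Psmb9, was lower at GF day 7 (-7.26 ± 1.77, edgeR adjusted p = 0.00845), as was the chaperone Calr (-1.60 ± 0.39, edgeR adjusted p = 0.00806). The 3 conditions at day 3 and SPF mice at day 7 gave 0. Over all genes 0.945% were called in ABX mice at day 7, and 1.7% higher and 12.7% lower at GF day 7. Class I heavy chain genes were lower in other comparisons. H2-K1 had 282 ± 99.6 CPM at GF day 7 and 964 ± 81.1 at SPF day 7 (-1.77 ± 0.42, edgeR adjusted p = 0.0103). In the GF interaction at day 7, H2-D1 was at -3.16 ± 0.66 (edgeR adjusted p = 0.00708) and B2m at 1.31 ± 0.38 (edgeR adjusted p = 0.0391).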

How the data were processed

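RNA of sorted microglia was measured in 27 libraries of 9 groups. Per the submitters' processing notes, the authors used cutadapt 1.9, HISAT2 2.0.4, StringTie 1.3.4d and edgeR, with the mm10 assembly. The annotation release, strand setting and treatment of reads that match several places are not given in the sources used here. The deposited table holds whole-number counts per gene. Symbols and coordinates come from GENCODE M21, which matched 52073 of 56691 identifiers. The members, gene lists and promoter motifs were chosen with earlier results of these data known. Genes were kept by filterByExpr (17573 genes, 99.9% of counts), scaled by TMM and fitted in edgeR 4.0.16 (R 4.3.3) by a robust quasi-likelihood model over the 9 group means, with Benjamini-Hochberg adjustment over all genes tested at 0.05, for 19 comparisons. The common biological coefficient of variation was 1.54, which limits what 3 libraries a group can show. Ratios used log2 of counts plus 0.5. Named were the 6 catalytic genes, Psme1, Psme2, every member called, and the 2 smallest p-values in each comparison of ICH with sham. Alternatives were DESeq2 1.42.0, limma 3.58.1 voom with quality weights, DESeq2 size factors, no filter, a replicate block, no sparse libraries, GC offsets and each library left out. The fit was tested on simulated data, in SPF ICH day 7 against SPF sham. With the dispersion of each gene in all 27 libraries, it called 6% of 50 genes set 4-fold apart. It called 34% at 16-fold, 78% at 64-fold and 90% at 256-fold, with 0 false calls among 16878 other genes. With a dispersion of 0.1 for every gene it called 100% at each fold, with 7 false calls among 16826.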

Additional observations from a re-analysis of the deposited data

Results flagged for a closer look

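In 3 genes the response to ICH at day 7 differed between GF and SPF mice by the interaction test of the edgeR fit. These were 6.12% of the proteasome genes, against 7.04% of all genes, so the count does not set proteasome genes apart. For the ATPase Psmc4 the GF response minus the SPF response was -4.96 on the log2 scale, for the activator Psme4 it was -12.41, and for the inhibitor Psmf1 it was -6.57. The value for Psme4 comes from a group with no counts and depends on the prior count of the fit. All 3 values rest on the sparse GF ICH day 7 libraries, and none held in every fit that left out 1 library.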

How the results depend on the processing

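The counts of proteasome genes called at day 7 depended on the tool and on single libraries. In ABX mice at day 7 against sham, where the edgeR fit called 0, DESeq2 called 8, limma voom 3, GC offsets 1 and the fit without sparse libraries 13. Against ABX day 3 they were 9, 2 and 12 (DESeq2, voom, without sparse libraries), and against SPF day 7 they were 7, 3 and 13. The fit without sparse libraries has 1 ABX ICH day 7 library, so its ABX day 7 counts cannot show the spread within that group. GC offsets called 127 higher and 31 lower over all genes in ABX day 7 against sham. DESeq2 called 1 in GF day 3 against sham, 1 in GF sham against SPF sham and 1 in the ABX interaction at day 7. In GF day 7 the fit of the 2 groups alone, added after seeing the data, called 0 against sham. That fit called 12 higher and 15 lower of 8610 genes. Voom called 27 against GF day 3 (948 higher and 4066 lower over all genes) and 21 against SPF day 7 (667 and 2714). No filter left 7 against GF day 3, where 167 were higher and 1847 lower of 27305 genes. The GF interaction at day 7 gave 8 by DESeq2 (356 higher and 4605 lower over all genes) and 7 by voom (124 and 810). Leaving out 1 library gave 7 to 14 (GF day 7 against sham), 6 to 15 (against GF day 3), 3 to 12 (against SPF day 7), 0 to 7 (GF interaction), 0 to 3 (ABX day 7 against sham), 0 to 4 (against ABX day 3) and 0 to 1 (against SPF day 7). Without GF sham replicate 1 the 3 ABX counts were 3, 4 and 1. Calls over all genes in the fits without 1 library are not given here, so these ranges say nothing on proteasome genes in particular. The causes were not tested. DESeq2's size factors moved the median of all genes from -0.79 to -1.19 in ABX day 7 against sham and from -2.10 to -2.63 in GF day 7. The higher share of all calls in ABX day 7 moved from 77.7% to 57.8% against sham and from 77.3% to 56.2% against day 3.

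Without sparse libraries 4 ratio differences changed sign: Psmb8 to Psmb5 was 0.47 at day 7 against day 3 and -0.41 in GF against SPF, Psmb9 to Psmb6 was 0.35 at day 7 against day 3, and Psmb10 to Psmb7 was 0.67 in GF against SPF. Leaving out 1 library gave -0.98 to 0.83, -0.48 to 1.34, -0.94 to 0.23 for the first 3, and -1.33 to 0.72 for Psmb9 to Psmb6 in GF against SPF. Psmb10 to Psmb7 ran from -4.16 to -2.87 at day 7 against sham and from -3.86 to -2.57 against day 3, each passing after adjustment without 2 of the libraries.

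Single genes changed sign with GC offsets: against GF day 3, Psma3 (-0.31) and Psmc2 (-0.072); in SPF day 3, Psmb9 (-0.0090) and Psme1 (-0.26); in ABX day 3, Psmb8 (-0.16) and Psme1 (-0.011); in ABX day 7, Psmb10 (0.34); and in GF day 7, Psmb5 (1.89), Psmb7 (-0.054), Psmb9 (0.73) and Psmb10 (0.35). Psmb9 in ABX day 7 was -0.016 with DESeq2 and its size factors and -0.048 with voom, and Psme1 in GF day 7 was -0.29 with DESeq2 and its size factors. In GF day 3, voom gave Psmb8 0.068, Psmb9 1.47, Psmc6 0.31 and Psme1 0.0036, and the fit without sparse libraries gave Psmb8 0.033, Psme1 0.016 and Psme2 -0.063. Leaving out 1 library gave ranges across 0 against sham. They were -0.025 to 0.62 for Psme1 in SPF day 3 and -0.15 to 0.35 for Psmb8 in ABX day 3. In ABX day 7 they were -0.65 to 0.99 for Psmb9 and -1.13 to 0.064 for Psmb10. In GF day 3 they were -0.71 to 0.25 for Psmb8, -1.91 to 0.70 for Psmb9, -2.47 to 0.46 for Psmc6 and -0.36 to 0.081 for Psme1. In GF day 7 they were -1.86 to 1.47 for Psmb5, -0.026 to 1.71 for Psmb6, -1.69 to 1.09 for Psmb9 and -0.044 to 0.64 for Psme1.

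The sources used here do not say whether replicate numbers pair the libraries. In 0 comparisons did every same-numbered pair deviate together with a correlation over 0.1, though single pairs reached 0.128. With 3 libraries a group and a wide spread between them, this check cannot exclude pairing. With the replicate block the count was 8 in GF day 7 against sham, 11 against GF day 3, 10 against SPF day 7 and 1 in the GF interaction. Over all genes that fit called 243 higher and 1699 lower, 273 and 2187, 157 and 1794, and 28 and 741, in the same order.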
